A study of Macaca mulatta with 24 samples.

Results

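Potassium channel genes, those whose symbol begins with KCN, were described in 4 areas of rhesus monkey (Macaca mulatta) neocortex. The array's annotation named 112 probe sets with 1 KCN symbol, for 74 genes among 14132 named genes. A probe set is the group of short probes that reports 1 transcript, and 109 of the 112, for 71 genes, matched a RefSeq entry of the same symbol. The sets without a match were the only ones of KCNA1, KCNK4 and KCNT1. The members were chosen by symbol and not by their values. The areas were primary motor cortex (M1, its forelimb region), the dorsal premotor area PMd, the ventral premotor area PMv, and A46 of the prefrontal cortex. Pieces from the left and right side of 3 animals gave 24 arrays, 6 per area. Animals 1 and 2 were males of 2.7 and 2.6 years and animal 3 was a female of 2.7 years. All 3 had been bred in group cages with no experimental treatment and were perfused with cold heparinised saline under pentobarbital overdose. Areas were set by sulcal landmarks, so each piece was bulk cortex holding every cell type.

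Potassium channels let potassium ions cross the cell membrane, which sets the resting potential and ends the action potential. Voltage-gated channels shape spikes and firing rate, calcium-activated channels add a pause after spikes, and inward rectifiers and tandem-pore channels hold the resting potential. In cortex, KCNC1 is known from fast-firing interneurons, KCNA1 and KCNA2 from axons beside the nodes of Ranvier, and KCNJ10 from glia that take up potassium released by active neurons.

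Values are log2 intensities, on which a difference of 1 is a doubling. Of the 74 genes, 51 had a probe set whose mean passed the intensity filter of 5.62 and were tested, each through its brightest set. The other 23 genes, left out of the main test, had means between 3.73 and 5.58. These were KCNA4, KCNA5, KCNA10, KCNH1, KCNH7, KCNH8 and KCNS3 among the voltage-gated subunits, KCNT1 and KCNN4 among the sodium- and calcium-activated channels, KCNJ1, KCNJ14, KCNJ15 and KCNJ16 among the inward rectifiers, KCNK10, KCNK13, KCNK17 and KCNK18 among the tandem-pore channels, and KCNAB3, KCNE1, KCNE3, KCNE5, KCNMB3 and KCNRG among the accessory genes. KCNT1 lay nearest to the filter, at 5.58, with arrays between 5.39 and 5.72. KCNH1 averaged 5.10, KCNE5 averaged 4.93 and KCNRG averaged 4.33. The filter used the mean over all arrays and not the area values, and a low value sets no absence of the transcript. When all 74 genes were tested with no filter, 15 were called in M1 minus A46 (20.3%, against 9.14% of all genes), the 13 described below with KCNK10 at 0.49 (adjusted p = 0.00227) and KCNA4 at -0.31 (adjusted p = 0.0357).

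Each array correlated with the others at a median of 0.991 to 0.993, except the PMv left arrays of animals 1 and 2, at 0.984 and 0.988. Area comparisons were therefore also computed without these 2 arrays. All 4 areas share 1 estimate of the spread, so the arrays also bear on comparisons that leave PMv out. Median intensity was 47.9 to 51.6 per array, and 3′ to 5′ log2 ratios of actin, a measure of RNA integrity, were 0.81 to 1.07 in M1, 0.77 to 1.16 in PMd, 0.88 to 1.32 in PMv and 0.82 to 1.23 in A46. The same ratio for GAPDH was 0.86 to 1.09 in M1 and 0.78 to 0.93 in A46. Neuronal markers were bright in every area: STMN2 averaged 12.28 in M1 and 12.03 in A46, and SYT1 averaged 12.59 in M1 and 12.73 in A46.

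The first comparison asked which potassium channel genes differ between M1 and A46. A gene was called at an adjusted p under 0.05 from limma, adjusted over all 26383 probe sets tested. Of the 51 genes, 13 (25.5%) were called, against 14.7% of all 10043 genes tested. KCNA1, KCNA2, KCNC1 and KCNJ10 were higher in M1. These were 4 of the 51, a share slightly below the 8.77% of all genes called higher. KCNA3, KCNB2, KCNG3, KCNJ4, KCNJ9, KCNJ12, KCNK5, KCNN3 and KCNS2 were lower in M1. These were 9 of the 51, a share above the 5.89% of all genes called lower. The median difference over the 51 genes was -0.04, with 21 positive and 30 negative values between -0.52 and 0.69. Over all genes tested the median was -0.00 and the middle 80% lay between -0.19 and 0.23. All 13 called genes kept their direction in 3 of 3 animals and in 6 of 6 pairs of M1 and A46 arrays from the same hemisphere. The call favours genes whose animals agree, so this describes the called genes and is no separate support. Every member of the comparison is shown by class in the plot of M1 minus A46 differences. The count fell to 3 without animal 2, where 1.89% of all genes were called, and the 3 were KCNA1, KCNC1 and KCNJ10. Leaving out animal 1 gave 8, with 7.28% of all genes called, and leaving out animal 3 gave 15 (29.4%), with 22.4% of all genes called. It was 5 in left hemispheres alone and 12 in right hemispheres alone, where 5.59% and 12.7% of all genes were called. It was 7 without the animal as a block, against 4.84% of all genes. Without the 2 PMv arrays that stood apart it was 15 (29.4%), with KCND2 and KCNF1 added, where 19.6% of all genes were called.

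**Figure D1:**
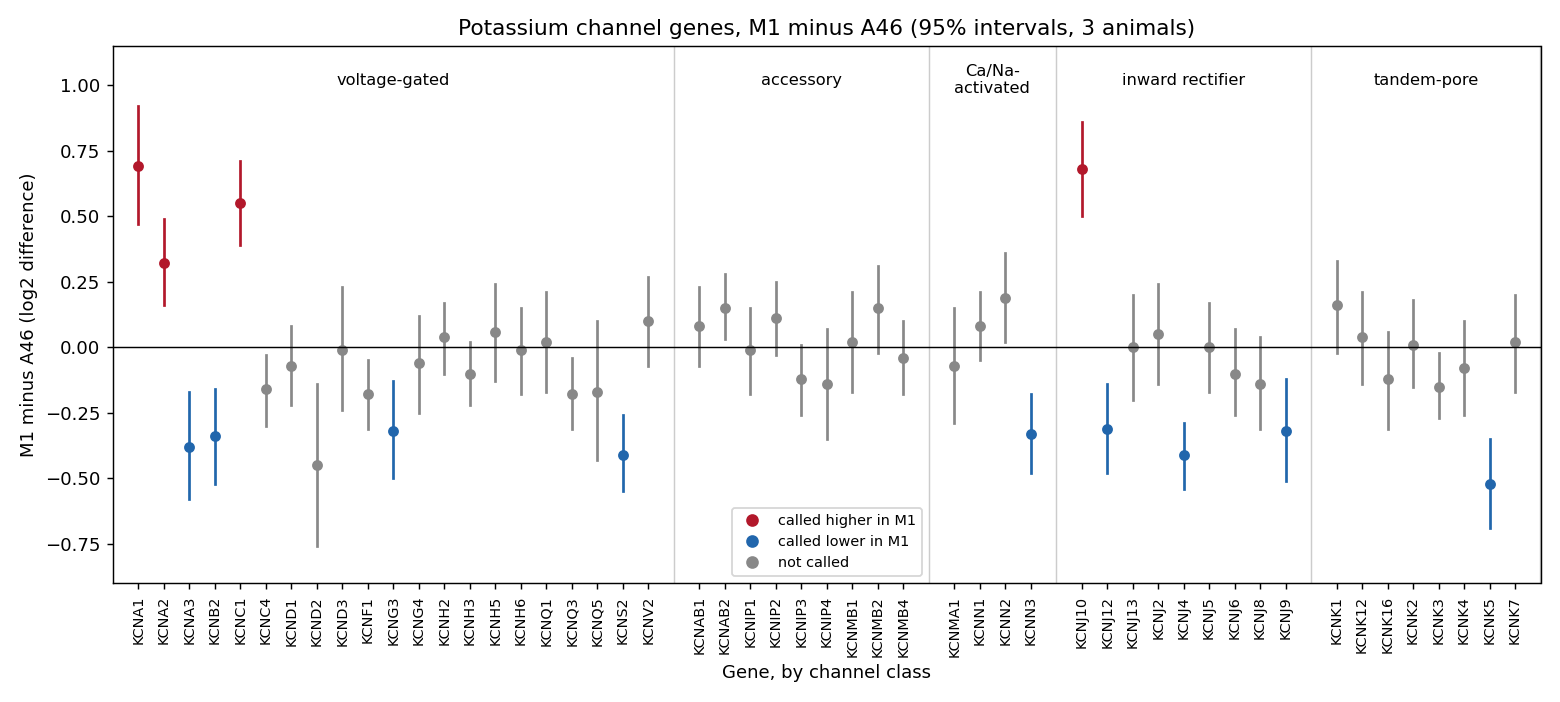
Differences between M1 and A46 (log2, vertical axis) for the 51 tested potassium channel genes, ordered by channel class along the horizontal axis. Points are means over 3 animals, bars are limma's 95% intervals, and colour marks the 4 genes called higher in M1, the 9 called lower and the 38 not called.

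Among voltage-gated subunits, 3 of 21 tested genes were higher in M1, 4 were lower and 14 were not called. Over all genes tested 8.77% were called higher and 5.89% lower. Whether the classes differ in their share of calls was not tested. KCNA1, a channel subunit of axons and terminals that restrains repetitive firing, lay between 7.06 and 7.53 on the M1 arrays (median 7.32), against 6.37 to 6.92 on the A46 arrays (median 6.61). PMd ran from 6.73 to 7.15 and PMv from 6.81 to 7.01. KCNA1 was read through a single probe set, which had no RefSeq match. Every M1 array lay above every A46 array, and the difference was 0.69 (SE 0.10, adjusted p = 0.00082), or 1.62-fold. KCNA2, which assembles with KCNA1 in axons, lay between 10.29 and 10.48 in M1 (median 10.39), between 10.00 and 10.32 in PMd, between 9.62 and 10.16 in PMv and between 9.89 and 10.23 in A46 (median 10.06). Its M1 arrays also stood clear of A46, with a difference of 0.32 (SE 0.08, adjusted p = 0.0158). KCNA3, the remaining tested member of the KCNA subfamily, known from T cells and microglia as well as neurons, went the other way. It lay between 7.80 and 8.17 in M1 (median 7.95), against 8.21 to 8.44 in A46 (median 8.36), with no overlap, and the difference was -0.38 (SE 0.10, adjusted p = 0.0203). A second KCNA3 probe set gave -0.39 and was also called.

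KCNC1, which repolarises the membrane quickly and permits high firing rates, lay between 7.85 and 8.01 in M1 (median 7.97), between 7.46 and 7.86 in PMd (median 7.72), between 7.55 and 7.66 in PMv (median 7.56) and between 7.23 and 7.69 in A46 (median 7.38). The M1 arrays were above all A46 arrays, with a difference of 0.55 (SE 0.07, adjusted p = 0.000329), or 1.46-fold. KCNC4, of the same subfamily, differed by -0.16 (adjusted p = 0.112) through its brightest set, 1 of 3 tested, and by -0.39 (adjusted p = 0.0101) through its dimmest. The direction was the same in all 3 sets and the call was not.

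KCNB2, a delayed rectifier of cell bodies and dendrites, lay between 6.88 and 7.21 in M1 (median 7.15), against 7.17 to 7.60 in A46 (median 7.46). These ranges overlapped, with 3 of 6 M1 arrays below the lowest A46 array, and the difference was -0.34 (SE 0.08, adjusted p = 0.017). Its second probe set gave -0.27 and was not called (adjusted p = 0.0653). KCNG3 and KCNS2 form no channel alone and alter KCNB channels when they assemble with them. KCNG3 lay between 5.32 and 5.72 in M1 (median 5.52), against 5.72 to 6.05 in A46 (median 5.81), close to the intensity filter. The highest M1 array and the lowest A46 array both rounded to 5.72, and the difference was -0.32 (SE 0.08, adjusted p = 0.0266). KCNS2 lay between 6.76 and 7.16 in M1 (median 7.03), against 7.27 to 7.53 in A46 (median 7.38), and did not overlap. Its difference was -0.41 (SE 0.07, adjusted p = 0.00164), and -0.30 in a second set that was also called. The other tested subunits of this silent kind gave -0.18 for KCNF1 (adjusted p = 0.0698), -0.06 for KCNG4 and 0.10 for KCNV2, none of them called. The M1 and A46 arrays of KCNF1 nonetheless did not overlap, at 9.06 to 9.25 in M1 and 9.26 to 9.42 in A46. Without the 2 PMv arrays that stood apart, KCNF1 was called (adjusted p = 0.0323).

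KCND2, a subunit of the rapidly inactivating current of dendrites, narrowly missed the threshold. It lay between 6.91 and 7.23 in M1 (median 6.99), against 7.10 to 7.83 in A46 (median 7.45), with a difference of -0.45 (SE 0.14, adjusted p = 0.0552). Its adjusted p was 0.0248 without the 2 PMv arrays that stood apart. The 3 animals gave -0.82, -0.52 and -0.01, so its interval was the widest of the 51 genes, from -0.76 to -0.14. KCND3, of the same subfamily, differed by -0.01 (adjusted p = 0.983). KCNQ3, which carries the slow current that muscarinic receptors close, differed by -0.18 (adjusted p = 0.0791), and KCNH3 by -0.10 (adjusted p = 0.281). None of the 4 tested KCNH genes or the 3 tested KCNQ genes was called, where 14.7% of all genes were.

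**Figure D2:**
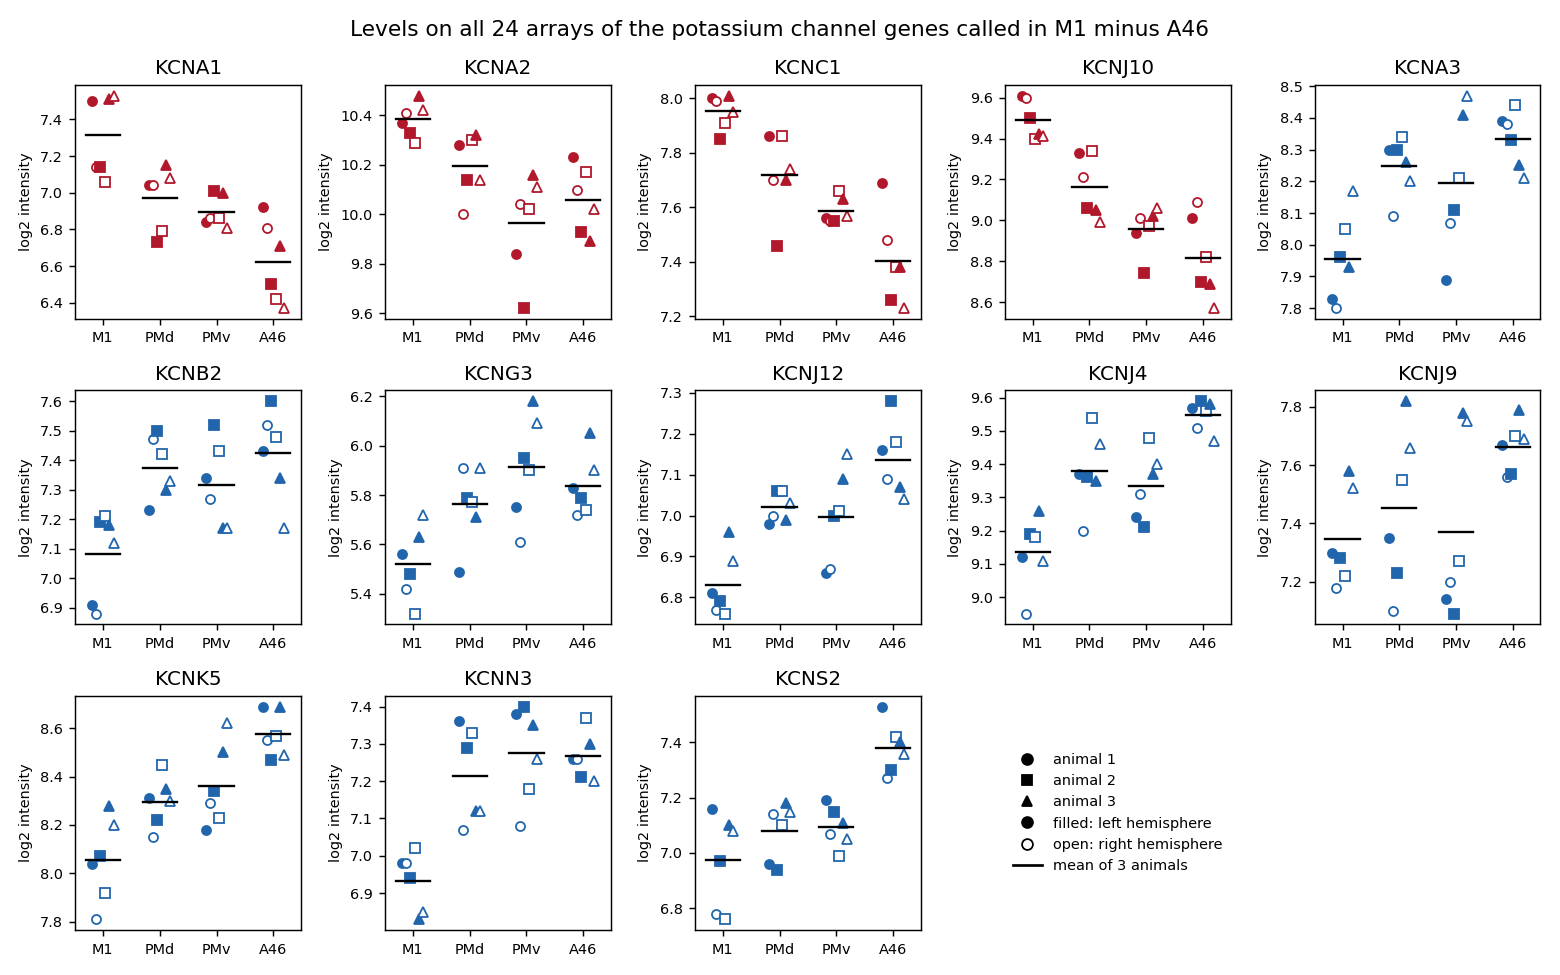
Log2 intensity (vertical axis) on every array of the 13 genes called in M1 minus A46, with M1, PMd, PMv and A46 along each panel; shapes mark animals, filled points left and open points right hemispheres, and lines the mean of 3 animals. In 11 of the 13 panels the 6 M1 points lie clear of the 6 A46 points, and KCNB2 and KCNJ9 overlap. Genes called from these same arrays are favoured to lie clear. Of all genes tested 10.3% did, and the share among all called genes is not given.

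Inward rectifiers split in direction, with 1 of 9 tested genes higher in M1 and 3 lower. The shares of all genes were 8.77% higher and 5.89% lower. KCNJ10, the rectifier of astrocytes and oligodendrocytes, lay between 9.40 and 9.61 in M1 (median 9.46), between 8.99 and 9.34 in PMd (median 9.14), between 8.74 and 9.06 in PMv (median 8.99) and between 8.57 and 9.09 in A46 (median 8.76). The M1 arrays lay above every array of the other 3 areas, and M1 exceeded A46 by 0.68 (SE 0.08, adjusted p = 0.000165), or 1.6-fold. A second KCNJ10 probe set gave 0.47 and was also called. KCNJ4, a strongly rectifying channel of forebrain neurons, lay between 8.95 and 9.26 in M1 (median 9.15), against 9.47 to 9.59 in A46 (median 9.57). PMd ran from 9.20 to 9.54 and PMv from 9.21 to 9.48. No M1 array reached the A46 range, and the difference was -0.41 (SE 0.06, adjusted p = 0.000496).

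KCNJ12, of the same strongly rectifying group, lay between 6.76 and 6.96 in M1 (median 6.80), against 7.04 to 7.28 in A46 (median 7.13). The difference was -0.31 (SE 0.08, adjusted p = 0.0197) with no overlap, but its second probe set gave -0.14 and was not called (adjusted p = 0.225). In human, KCNJ12 has a near-identical copy, KCNJ18, and whether these probes tell such copies apart was not tested. KCNJ9, a subunit of the channels that G-protein-coupled receptors open, lay between 7.18 and 7.58 in M1 (median 7.29), against 7.56 to 7.79 in A46 (median 7.68). These ranges overlapped slightly, and the difference was -0.32 (SE 0.09, adjusted p = 0.0341). KCNJ6, a partner of KCNJ9 in those channels, differed by -0.10 (adjusted p = 0.475), and the third strongly rectifying member tested, KCNJ2, by 0.05 (adjusted p = 0.79).

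In the tandem-pore class 1 of 8 tested genes was called, a share near the 14.7% of all genes. KCNK5, a background channel opened by alkaline conditions and best known from kidney, lay between 7.81 and 8.28 in M1 (median 8.06), against 8.47 to 8.69 in A46 (median 8.56). PMd ran from 8.15 to 8.45 and PMv from 8.18 to 8.62. The M1 and A46 ranges stood apart, and the difference of -0.52 (SE 0.08, adjusted p = 0.000796) was the lowest among the 51 genes. The probe set for KCNK5 is of a kind whose probes can match more than 1 transcript, and its second set lay below the filter. KCNK1 differed by 0.16 (adjusted p = 0.249) through its brightest set and by 0.29 (adjusted p = 0.0212) through its other set. KCNK2, KCNK3 and KCNK4 differed by 0.01, -0.15 and -0.08, and none was called.

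Among calcium-activated channels, KCNN3 was called and 3 genes were not, where 14.7% of all genes were called. KCNN3, a small-conductance channel that prolongs the pause after spikes, lay between 6.83 and 7.02 in M1 (median 6.96), against 7.20 to 7.37 in A46 (median 7.26). The ranges did not overlap, and the difference was -0.33 (SE 0.07, adjusted p = 0.00628). Its relatives KCNN1 and KCNN2 differed by 0.08 (adjusted p = 0.473) and 0.19 (adjusted p = 0.141). KCNMA1, the large-conductance channel, differed by -0.07 (adjusted p = 0.73).

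None of the 9 tested accessory genes was called, where 14.7% of all genes were, and their differences lay between -0.14 and 0.15. With so few genes this count does not set the class apart. KCNAB1 and KCNAB2, cytoplasmic partners of the KCNA channels, differed by 0.08 (adjusted p = 0.54) and 0.15 (adjusted p = 0.0993). The KCNAB2 arrays nonetheless did not overlap, at 10.54 to 10.66 in M1 and 10.36 to 10.50 in A46, while its 3 dimmer sets gave -0.10, -0.22 and -0.07. KCNIP3 and KCNIP4, which bind the KCND channels, differed by -0.12 (adjusted p = 0.244) and -0.14 (adjusted p = 0.419), and 1 dim set of KCNIP3 gave -0.34 (adjusted p = 0.0454). KCNMB4, the brain partner of KCNMA1, differed by -0.04 (adjusted p = 0.799). Of the 38 genes not called in any class, 37 had a 95% interval inside -0.5 to 0.5 and 20 had one inside -0.25 to 0.25. The call alone does not show that they were alike in both areas. Several probe sets were tested for 16 of the 51 genes, and all sets of a gene shared their sign in 13 and their call in 11.

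With M1 and A46 arrays set side by side, 13 of the 51 genes (25.5%) did not overlap, against 10.3% of all genes tested. These were 11 of the 13 called genes with KCNAB2 and KCNF1. The calls came from the same arrays and favour such separation, and its share among all called genes is not given. Area accounted for a median of 32.7% of the variance among the 12 animal-by-area means over the 51 genes, and animal for 22.8%. Over all genes tested the medians were 27.8% for area and 29.4% for animal. These are raw shares, and noise alone gives some to each term. With 4 areas and 3 animals it gives more to area, and the share due to noise was not computed. Area accounted for 88.0% in KCNC1, 87.8% in KCNJ4, 87.5% in KCNS2, 86.3% in KCNN3 and 82.7% in KCNJ10. These genes were called from the same means, and the call favours a high area share. At the other end, animal accounted for 90.6% of the variance of KCNAB1.

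Genes outside the KCN symbols that anchor or cluster these channels were listed for context. Of 13 tested, ANK3, the scaffold of the axon initial segment, was higher in M1 (0.36, adjusted p = 0.00879). AKAP5, a scaffold that binds KCNQ channels, was lower (-0.38, adjusted p = 0.00518), as was DPP10, a partner of KCND channels (-0.30, adjusted p = 0.0494). The median of the list was -0.07. CNTNAP2, which clusters KCNA channels in axons, differed by -0.18 (adjusted p = 0.296), and DLG2 by -0.08 (adjusted p = 0.413). Of 3 tested sodium channels, SCN1A, which is known from fast-firing interneurons, was higher in M1 (0.87, adjusted p = 0.000363), SCN2A was lower (-0.27, adjusted p = 0.0305) and SCN8A was not called (-0.02). The 1 tested HCN channel, HCN3, differed by -0.03.

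Marker lists of cell types also moved between M1 and A46, and in bulk tissue fewer cells of a type and less RNA per cell cannot be told apart. All 4 tested markers of large projection neurons were higher in M1, led by SPP1 (2.27) and NEFH (2.24), and their summed intensity was 3949 to 5250 on M1 arrays and 1191 to 1522 on A46 arrays. Of 5 oligodendrocyte markers, 4 were higher, led by UGT8 (2.26), and CNP was not called (-0.08). Their summed intensity was 17581 to 23977 in M1 and 9383 to 12746 in A46, which do not overlap. Of 5 astrocyte markers, S100B was higher (0.69), GFAP, SLC1A2, SLC1A3 and ALDH1L1 were not called, and the sums were 15834 to 19097 in M1 and 16056 to 16768 in A46. Of the 3 genes tested from the parvalbumin interneuron list, PVALB, which marks those cells, was higher (1.28). GAD2 (0.78, higher) and GAD1 (-0.17, not called) make GABA in inhibitory neurons of every kind. The sums of all 3, which also carry that general signal, were 2933 to 3288 in M1 and 2568 to 3083 in A46. Of 3 markers of other interneurons, CRH (0.85) and NPY (0.45) were higher and VIP was lower (-0.48). Their sums were 967 to 1657 in M1 and 779 to 1005 in A46. Of 7 microglial markers, TYROBP (0.48) and ITGAM (0.26) were higher, with sums of 1288 to 1612 in M1 and 1202 to 1294 in A46. None of 3 endothelial markers was called, and their sums were 682 to 748 in M1 and 682 to 742 in A46. Of 2 neuronal markers, STMN2 was higher (0.25) and SYT1 was not called (-0.14), with sums of 10773 to 11712 in M1 and 10471 to 11401 in A46. No marker tested was listed at 0 on any array. The part of these cell types in the differences of the potassium channel genes was not tested.

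The next comparisons set each premotor area against A46, and they share the A46 arrays with the comparison above. In PMd, 3 of 51 genes (5.88%) were called, against 2.51% of all genes. KCNJ10 was higher by 0.35 (SE 0.08, adjusted p = 0.0471) and KCNC1 by 0.32 (SE 0.07, adjusted p = 0.0463), where 1.81% of all genes were called higher. KCNS2 was lower, at -0.30 (SE 0.07, adjusted p = 0.0395), where 0.697% of all genes were called lower. All 3 kept their direction in 3 of 3 animals, which the call itself favours. The count was 0 without animal 1 and without animal 2, where 0.189% and 0.0597% of all genes were called. It was 6 without animal 3, where 11.8% of all genes were called. It was also 0 with no animal block (0.0199% of all genes), with no intensity filter (1.47%) and in left hemispheres alone (0.657%). It was 1 in right hemispheres alone (1.68% of all genes) and with no intensity trend (1.79%). Without the 2 PMv arrays that stood apart it was 4 (7.84%), against 4.89% of all genes. In PMv, none of the 51 genes was called by limma, against 1.54% of all genes, 0.717% higher and 0.826% lower. An unadjusted p under 0.05 was met by 12 of the 51, and the share of all genes at that level is not given. The PMv count was 13 (25.5%) without animal 3, where 25.1% of all genes were called. It was 1 without the 2 arrays that stood apart (KCNS2, -0.33, adjusted p = 0.014), against 3.14% of all genes, and 1 when a gene was the mean of its probe sets, against 2.25%.

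Set side by side for the genes called in M1, KCNA1 differed from A46 by 0.69 in M1, 0.35 in PMd and 0.27 in PMv. KCNC1 differed by 0.55 in M1, 0.32 in PMd and 0.18 in PMv, and KCNJ10 by 0.68, 0.35 and 0.14 in the same areas. For these 3 genes the area means ran in the order M1, PMd, PMv, A46. KCNS2 differed by -0.41 in M1, -0.30 in PMd and -0.29 in PMv, where its adjusted p was 0.0611. KCNK5 differed by -0.52 in M1, -0.28 in PMd (adjusted p = 0.0933) and -0.22 in PMv (adjusted p = 0.169), and KCNJ4 by -0.41, -0.17 and -0.21. In contrast, KCNN3 differed by -0.33 in M1, -0.05 in PMd and 0.01 in PMv, and KCNG3 by -0.32, -0.08 and 0.07. KCNA2 differed by 0.32 in M1, 0.14 in PMd and -0.09 in PMv. Without the 2 PMv arrays that stood apart, the PMv difference turned to 0.01 for KCNA2 (adjusted p = 0.971) and to -0.08 for KCNN3 (adjusted p = 0.66). In 10 of the 13 genes (76.9%) both premotor means lay between those of M1 and A46, against 90% of all genes called in M1 minus A46. On all arrays the exceptions were KCNA2, KCNG3 and KCNN3. By the values given above without the 2 PMv arrays, KCNA2 and KCNN3 also lay between. The share of all called genes without these arrays is not given. Whether these genes differ in the shape of the pattern over areas was not tested.

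**Figure D3:**
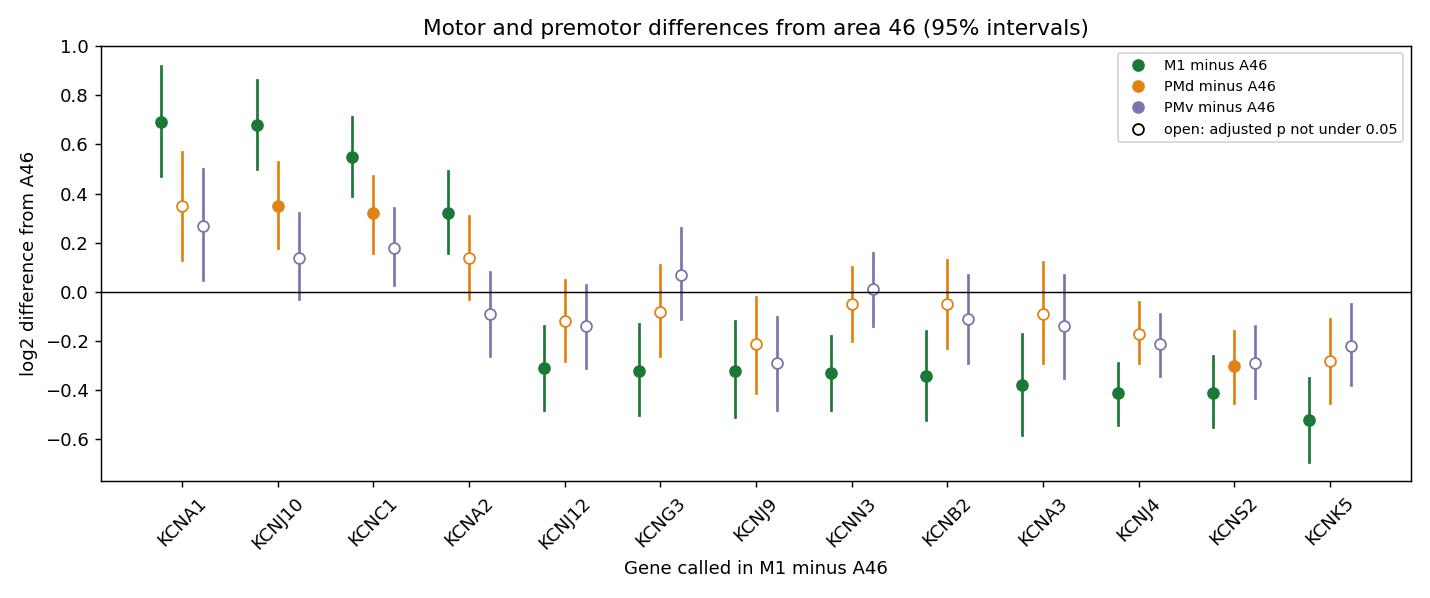
Differences from A46 (log2, vertical axis) of M1, PMd and PMv for the 13 genes called in M1 minus A46 (horizontal axis). Points are means over 3 animals with limma's 95% intervals, and open points have an adjusted p not under 0.05; among premotor points KCNJ10, KCNC1 and KCNS2 in PMd are filled.

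M1 was also set against the mean of both premotor areas, which asks what separates it from its neighbours. Here 7 of 51 genes (13.7%) were called, against 2.71% of all genes. Higher in M1 were KCNJ10 by 0.43 (SE 0.07, adjusted p = 0.00955), KCNA1 by 0.38 (SE 0.09, adjusted p = 0.0471), KCNC1 by 0.30 (SE 0.06, adjusted p = 0.0282) and KCNA2 by 0.30 (SE 0.07, adjusted p = 0.039), where 1.76% of all genes were called higher. Lower were KCNN3, at -0.31 (SE 0.06, adjusted p = 0.0184), KCNJ4, at -0.22 (SE 0.05, adjusted p = 0.0372), and KCNG3, at -0.32 (SE 0.07, adjusted p = 0.0436), where 0.946% of all genes were called lower. Each of the 7 kept its direction in 3 of 3 animals, which the call itself favours. KCNK5 missed the threshold at -0.27 (adjusted p = 0.0561), and KCNS2 gave -0.11 (adjusted p = 0.483). The count was 0 without animal 1, without animal 2 and with no animal block, where 0.826%, 0.129% and 0.0697% of all genes were called. It was 9 without animal 3 (17.6%, against 5.61% of all genes). With added quantile normalization 4 were higher and 4 lower, and 49% of all genes called were higher, against 177 of 272 without it. Without the 2 PMv arrays that stood apart 9 were called (17.6%), against 4.08% of all genes. KCNA2 was then at 0.25 and KCNN3 at -0.27.

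Between PMd and PMv, none of the 51 genes was called by limma, against 0.0199% of all genes. The share of all genes at an unadjusted p under 0.05 is not given, and 3 of the 51 met that level. These were KCNA2 with a difference of 0.24, KCNJ10 with 0.21 and KCNAB1 with 0.20, each at an adjusted p of 0.854. KCNA2 lay between 10.00 and 10.32 in PMd and between 9.62 and 10.16 in PMv, and the 2 lowest PMv arrays were those that stood apart. In a test for any difference among the 4 areas, 9 of 51 genes (17.6%) were called, against 7.88% of all genes. They were KCNA1, KCNA2, KCNC1, KCNG3, KCNJ4, KCNJ10, KCNK5, KCNN3 and KCNS2, with adjusted p between 0.00108 for KCNJ10 and 0.0446 for KCNG3. Leaving out animal 1 gave 3, animal 2 gave 0 and animal 3 gave 18, where 2.66%, 0.528% and 29.9% of all genes were called. With no animal block 2 were called, against 1.32% of all genes. Without the 2 PMv arrays that stood apart 11 were called (21.6%), against 11.6% of all genes, and between PMd and PMv the count stayed at 0.

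Left and right hemispheres were compared over the 12 pairs of arrays, which come from 3 animals, so the p-values rest on more units than animals. None of the 51 genes was called by limma, as was 0% of all genes. An unadjusted p under 0.05 was met by 2 of the 51, and the share of all genes at that level is not given. KCNQ5 was 0.15 above the right in left hemispheres (SE 0.07, adjusted p = 0.601) and KCNA1 0.11 (SE 0.04, adjusted p = 0.563). Over the 51 genes the left minus right difference lay between -0.07 and 0.15. A difference between hemispheres that varied by area was also called for none of the 51 genes and for 0% of all genes, and 0 potassium channel genes had an unadjusted p under 0.05. The M1 minus A46 differences taken within one hemisphere were 0.67 on the left and 0.71 on the right for KCNA1, 0.51 and 0.59 for KCNC1, and 0.72 and 0.64 for KCNJ10.

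The 3 animals agreed in direction for the called genes, which the call itself favours, and differed in size. In M1 minus A46, KCNA1 gave 0.46, 0.64 and 0.98 in animals 1, 2 and 3, KCNC1 gave 0.41, 0.56 and 0.67, and KCNJ10 gave 0.55, 0.69 and 0.79. KCNK5 gave -0.69, -0.52 and -0.35, and KCNB2 gave -0.58, -0.34 and -0.10. KCNN3 ran otherwise, at -0.28, -0.31 and -0.40. Animal 3 had the most positive difference in 11 of the 13 called genes (84.6%) and in 28 of the 51 tested (54.9%), against 33.9% of all called genes and 34.7% of all genes tested. For a called gene lower in M1, the most positive difference is the smallest in size. The 13 genes were 4 higher and 9 lower, against 881 higher and 592 lower among all called genes. The shares of called genes were not matched for direction. The genes of one animal share its tissue and arrays, so this is a description of 3 animals with no test. Animal 3 was the only female, so sex and individual cannot be told apart.

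**Figure D4:**
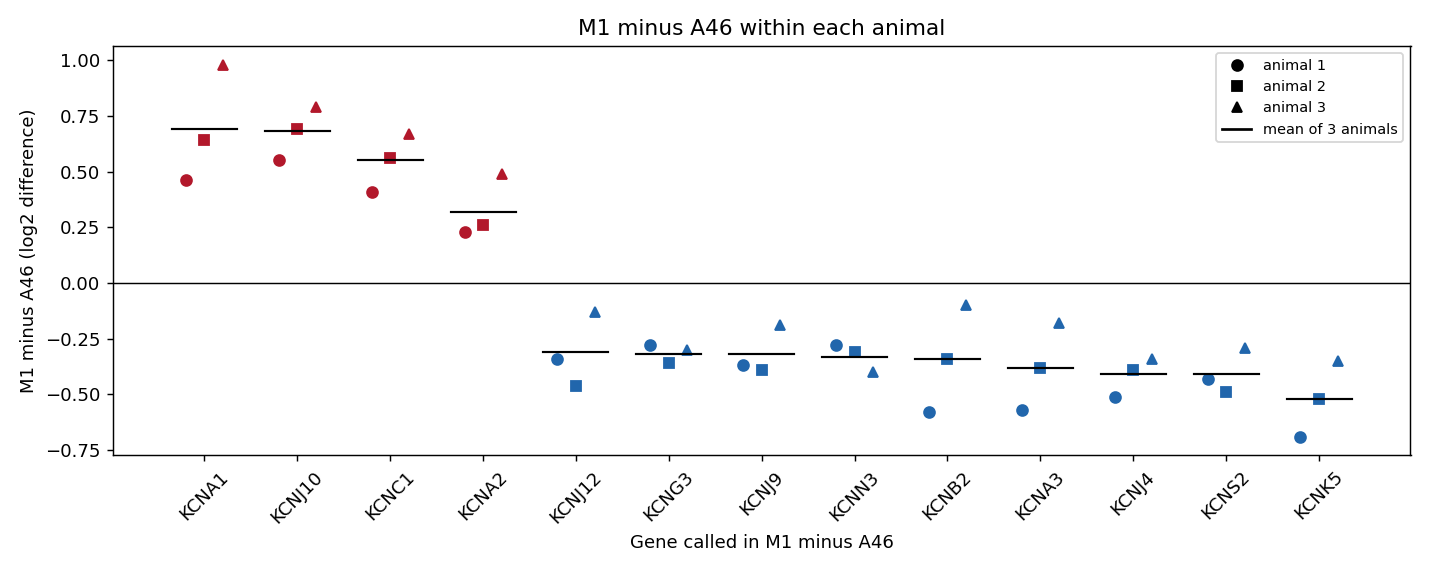
M1 minus A46 (log2 difference, vertical axis) in each of the 3 animals for the 13 called genes (horizontal axis), each point averaging both hemispheres, with a line at the mean of 3 animals. All 3 points of a gene lie on the same side of 0, which the call itself favours, and animal 3 is the most positive in 11 of the 13.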

How the data were processed

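Total RNA was hybridised to one-colour Affymetrix Rhesus arrays, 1 per tissue piece. The deposited intensity values, 1 per probe set on a linear scale, were made by the authors with the robust multi-array average (RMA), as the submitters' processing notes name it. The RMA version, the set of arrays it took, scan dates and a genome build were not found in these sources, so no coordinates are printed. RMA equalises arrays, so a difference is relative to an array's other transcripts.

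Titles gave each array's area, side and animal. Of 52865 probe sets, 99 controls were removed. Values were converted to log2 (floor 1), and the 26383 probe sets with a mean at or above the overall median of 5.62 (intensity 49.3) were tested. Genes were named through the platform annotation, and a gene was represented by its brightest tested set.

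Hemispheres were averaged within animal and area, giving 12 means, and limma 3.58.1 (R 4.3.3) was fitted with area and animal as terms and an intensity trend in eBayes. Tests were two-sided, with 6 residual and 6.98 prior degrees of freedom and Benjamini-Hochberg adjustment over all sets tested. All areas of a number come from 1 animal, which is the pairing. With area means removed, means of the same animal correlated at 0.207 to 0.85 (18 pairs). Left minus right used 24 arrays with 12 animal-by-area blocks. The fit was tested on simulated data. The number of animals, 3, limits the precision.

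Members and gene lists were chosen with earlier results of these data known. Genes named with values are those called in any comparison, the highest of each subfamily, and a fixed set of well-known members. Second probe sets, KCNA4, KCNJ2, KCNK10, KCNN2, KCNQ5 and KCNK2 to KCNK4 were added after their values were seen. Alternatives were tried for the animal block, each animal and hemisphere, the filter, a pseudocount of 16, added quantile normalization, the trend and the mean of a gene's sets. Leaving out 2 PMv arrays was chosen after seeing the data.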

Additional observations from a re-analysis of the deposited data

Results flagged for a closer look

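KCNJ10 was the gene with a single array far from the rest of its area. Its PMv left array of animal 2 read 8.74, against 8.94 to 9.06 on the other 5 PMv arrays. The gap to the nearest array was 0.64 of the whole range, above the critical share for 6 arrays. This was 1 of 120 groups of arrays examined over 30 genes, and chance alone flags about 1 in 20. The array is 1 of the 2 PMv arrays that correlated least with the others, and its part in the low value was not tested.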

How the results depend on the processing

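No called difference changed sign under any alternative run. Among genes not called, leaving out each animal in turn put M1 minus A46 at -0.00 to 0.15 for KCNAB1, -0.07 to 0.05 for KCND3, -0.20 to 0.00 for KCNMA1 and -0.11 to 0.03 for KCNMB4. In right hemispheres alone it was 0.01 for KCND3 and 0.00 for KCNMA1, and the mean of its sets gave -0.06 for KCNAB2. KCNA1, KCNC1 and KCNJ10 passed in M1 minus A46 in all settings run for them (12, 13 and 13), while KCNB2 passed in 8 of 13 and KCNG3 in 7 of 12. KCND2, not called in the main setting, passed in 6 of 13. Without the animal as a block, the pairing, counts of called genes were 2 for any area and 7 in M1 minus A46. They were 0 in PMd minus A46, PMv minus A46, M1 minus premotor and PMd minus PMv. In the same order, 1.32%, 4.84%, 0.0199%, 0.00996%, 0.0697% and 0% of all genes were called. Leaving out each animal in turn gave 0 to 18 for any area, 3 to 15 in M1 minus A46 and 0 to 6 in PMd minus A46. It gave 0 to 13 in PMv minus A46, 0 to 9 in M1 minus premotor and 0 to 2 in PMd minus PMv. Over the same runs, 0.528% to 29.9% of all genes were called for any area and 1.89% to 22.4% in M1 minus A46. The shares were 0.0597% to 11.8% in PMd minus A46 and 0% to 25.1% in PMv minus A46. They were 0.129% to 5.61% in M1 minus premotor and 0% to 5.46% in PMd minus PMv. Left hemispheres alone gave 2 for any area, 5 in M1 minus A46, 0 in PMd minus A46 and 1 in M1 minus premotor. There 2.38%, 5.59%, 0.657% and 0.139% of all genes were called. Right hemispheres alone gave 1 in PMd minus A46 and 4 in M1 minus premotor, where 1.68% and 2.22% of all genes were called. With no intensity filter the counts were 0 in PMd minus A46 and 4 in M1 minus premotor, and with no intensity trend 1 and 4. The shares of all genes were 1.47% and 1.66% with no filter, and 1.79% and 2.14% with no trend. Taking the mean of a gene's sets gave 1 in PMv minus A46, as did leaving out the 2 PMv arrays. Left minus right gave 0 under all alternatives run. In M1 minus A46, added quantile normalization gave 4 higher and 13 lower, against 4 and 9, with 19.2% of all genes called and 52.3% of those higher, and shifted all medians by -0.01. It made 56.9% of all genes called in PMv minus A46 higher, against 72 of 155. The mean of a gene's sets gave 19 in M1 minus A46, 5 higher and 14 lower, with 16.3% of all genes called. The cause of these changes was not tested, beyond the fewer animals or hemispheres in some. Low signal limits the 23 genes below the filter.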
